A study of Mus musculus with 7 samples.

Results

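The cells described here were luminal epithelial cells of mouse mammary tumors that carried fibrinogen mRNA. Drop-seq, which encloses cells in droplets with barcoded beads and counts each captured mRNA once by its unique molecular identifier (UMI), was performed on 7 control tumors, each from a different mouse. All 7 mice had the genotype MMTV-PyMT; HK2 f/f on a C57BL/6 background, with the polyomavirus middle T oncogene driven by the MMTV promoter and with floxed alleles of the glycolytic enzyme hexokinase 2. These control mice carried no Cre to delete HK2, so the labels call them wild type, although they too received tamoxifen for 7 days once a tumor was palpable. The labels place collection 3 months after the tumor became palpable. By their titles replicates 1, 2, 3 and 4 belong to a series called CB and replicates 5, 7 and 8 to one called WT, and the labels do not say what separates them.

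A barcode was kept as a cell if it had 200 to 6000 genes, which left 15047 of 37000. Members were selected on measured UMIs. A kept barcode counted as a member when it had at least 3 UMIs of the epithelial genes Epcam, Krt8 and Krt18 together and at least 2 of the fibrinogen genes Fga, Fgb and Fgg together. In addition, its UMIs of fibrinogen and of the hormone-sensing genes Ptn, Prlr, Cited1, Esr1 and Pgr together had to exceed those of the oncogene (PYMT). In all, 715 of the 15047 cells were members. These 12 genes chose the cells, so their levels are given as a description only. Comparisons were made with 2797 PYMT-positive epithelial cells (the same epithelial limit, at least 1 PYMT UMI and no fibrinogen UMI). A second comparison used 516 fibrinogen-negative hormone-sensing cells (no fibrinogen UMI, and at least 2 UMIs of the hormone-sensing genes, more than of PYMT). Of 3516 immune barcodes, which had no Epcam, Krt8 or Krt18 UMI by definition, the levels served as background.

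Fibrinogen is a plasma glycoprotein built from paired alpha, beta and gamma chains, encoded by Fga, Fgb and Fgg, that thrombin converts to fibrin and that cells bind through integrins. Hepatocytes are its main source, and there the chains rise in the acute-phase response to interleukin 6. The luminal layer of the mammary duct holds hormone-sensing cells, which carry the estrogen, progesterone and prolactin receptors and signal to their neighbors through ligands such as amphiregulin and WNT4. It also holds alveolar-type secretory cells, which make milk proteins.

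In the mouse genome (GRCm38, the build also named mm10) the 3 chain genes are neighbors. Fgg lies on chromosome 3 at 83007724 to 83015049 on the plus strand. Fga follows at 83026076 to 83033627, also on the plus strand. Fgb lies at 83040141 to 83049863 on the minus strand. Because 2 of the 3 chains were found in these cells and Fga was nearly absent, the windows from 250 bases before to 49 bases after each RefSeq start are shown (GRCm38.p6). For Fgb and Fgg that is the start given above. The RefSeq start of Fga, 83026153, lies 77 bases downstream of the start given above, so its window runs from 173 bases before to 126 bases after the latter. Capitals mark CTGGGAA, the core letters of a response element known from acute-phase genes.
Fgb (chr3:83049814-83050113, minus strand): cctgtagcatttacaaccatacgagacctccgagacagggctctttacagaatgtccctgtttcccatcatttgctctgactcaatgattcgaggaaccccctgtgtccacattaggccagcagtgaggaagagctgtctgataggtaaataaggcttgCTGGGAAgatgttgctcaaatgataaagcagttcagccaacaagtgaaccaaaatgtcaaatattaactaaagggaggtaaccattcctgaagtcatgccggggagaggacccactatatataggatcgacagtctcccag
Fgg (chr3:83007474-83007773, plus strand): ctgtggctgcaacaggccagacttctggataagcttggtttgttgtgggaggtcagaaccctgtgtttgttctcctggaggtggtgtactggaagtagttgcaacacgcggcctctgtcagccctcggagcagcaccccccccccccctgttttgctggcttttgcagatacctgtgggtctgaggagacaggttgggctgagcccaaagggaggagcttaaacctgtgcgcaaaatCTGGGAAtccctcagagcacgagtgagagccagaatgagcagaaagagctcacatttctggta
Fga (chr3:83025903-83026202, plus strand): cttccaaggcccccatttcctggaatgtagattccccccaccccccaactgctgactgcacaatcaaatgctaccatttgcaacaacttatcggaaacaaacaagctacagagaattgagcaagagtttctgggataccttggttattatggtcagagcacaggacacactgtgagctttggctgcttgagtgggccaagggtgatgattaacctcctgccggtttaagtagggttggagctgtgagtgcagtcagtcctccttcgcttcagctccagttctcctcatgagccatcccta
CTGGGAA was searched on both strands. It was found once in the Fgb window, 91 to 85 bases before the start, and once in the Fgg window, 13 to 7 bases before its start, both on the strand of the gene. The Fga window did not hold these letters, and neither CCAAT nor TATAAA was in any of the 3 windows. Of 32851 promoter windows of the same length, 11.1% held CTGGGAA, 37.4% CCAAT and 13.6% TATAAA. A match describes letters and not a bound site.

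Members were found in every tumor, at very unequal numbers. Replicates 1, 2, 3, 4, 5, 7 and 8 held 34, 78, 53, 483, 27, 26 and 14 members. Replicate 4 thus held 67.6% of them. As a share of epithelial cells, members made up 3.21% in replicate 1 (95% Clopper-Pearson interval 2.24 to 4.46%), 11% in replicate 2 (8.78 to 13.5%) and 7.06% in replicate 3 (5.33 to 9.13%). The share was 24.3% in replicate 4 (22.4 to 26.2%), 5.97% in replicate 5 (3.97 to 8.57%), 2.98% in replicate 7 (1.96 to 4.34%) and 5.60% in replicate 8 (3.10 to 9.22%). The intervals cover counting error only. The interval of replicate 4 overlapped that of no other tumor, and the shares of the 2 title series overlapped. The median share was 5.97% of epithelial cells and 1.74% of all cells. Since cells are compared as sums per tumor, replicate 4 entered each comparison as 1 of 7 mice, but with the deepest sum of members.

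**Figure D1:**
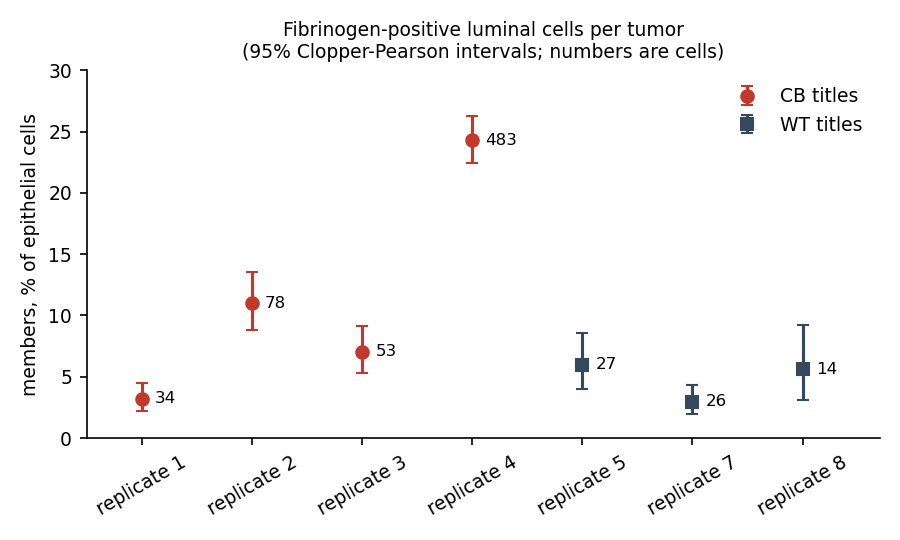
Share of epithelial cells that were fibrinogen-positive members (vertical axis, percent) in each of the 7 tumors (horizontal axis), with 95% Clopper-Pearson intervals and the number of members beside each point. Replicate 4, at 24.3%, stood above the other 6 tumors, which lay between 2.98% and 11%.

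The members had a median of 1427 UMIs per cell, against 1302 in PYMT-positive cells, 1146 in fibrinogen-negative hormone-sensing cells and 496.5 in immune barcodes. Their summed UMIs ran from 22474 in replicate 8 to 1008241 in replicate 4, with a median of 92762, so a level in replicate 8 rests on few molecules. Levels are UMIs per 1000000 UMIs of the summed cells (CPM), which for these end-counted libraries are not divided by gene length. Of the 15047 cells, 5 barcodes occurred in more than 1 library, and 0 members were among them. UMIs of other cell types were present. In 205 members (28.7%) at least 2 UMIs came from immune, fibroblast, endothelial or erythroid markers. Myoepithelial and hepatocyte markers were not part of this count. The share of such members ran from 14.8% in replicate 5 to 71.4% in replicate 8. Without counting Dcn, a fibroblast marker that was at a like level in the members of every tumor, these were 138 members (19.3%). The 6 fibroblast markers summed to 596 to 1690 CPM (median 825 CPM), of which Dcn alone made up 596 to 884 CPM. The 5 erythroid markers summed to 58.4 to 20780 CPM over the tumors (median 337 CPM), the highest value being that of replicate 8. The 15 immune markers summed to 26.7 to 365 CPM in members and 14996 to 32947 CPM in immune barcodes, with Cd79a at 0 in members. The part of such UMIs in the results was not tested, except where values without these cells are given. In those fits replicate 8 had fewer than 10 members and was left out, so they rest on 6 tumors.

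Fibrinogen in these cells meant Fgb and Fgg. Over all members 6537 UMIs of Fgb and 3802 of Fgg were counted, and 1 of Fga, whose row was present in 3 of the 7 matrices and which had 2 UMIs over all barcodes. Fgb, the beta chain, stood at 680, 2961, 5011, 4773, 1585, 3310 and 4049 CPM in replicates 1, 2, 3, 4, 5, 7 and 8 (3196 ± 1607, SD, n = 7). Fgg, the gamma chain, stood at 1694, 1753, 2030, 2737, 1261, 1994 and 2047 CPM in the same order (1931 ± 450). Fgb thus varied more between tumors than Fgg, and it was the lower chain in replicate 1 only. The ratio of Fgb to Fgg UMIs ran from 0.402 in replicate 1 to 2.47 in replicate 3, with a median of 1.69. Both chains were at 0 in the 2 comparison classes by definition. In immune barcodes, which should lack them, Fgb had 10.2 CPM and Fgg 4.90 CPM on average, and in barcodes under 200 genes 93.2 and 54.3 CPM. Members held 93.5% of the 11060 fibrinogen UMIs of all kept cells, from 83.5% in replicate 5 to 95.3% in replicate 3. Among epithelial cells the definition largely fixed this share, since only cells with 1 fibrinogen UMI or with PYMT not exceeded could hold the rest. Cells under the epithelial limit held 1.27% (replicate 5) to 6.10% (replicate 1).

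With the tumors pooled, most members carried both chains. In 492 members 2 chains had a UMI, in 222 members 1 chain and in 1 member all 3. Replicates 1, 2, 3 and 4 had 12 of 34, 50 of 78, 33 of 53 and 352 of 483 members with 2 chains. Replicates 5, 7 and 8 had 15 of 27, 21 of 26 and 9 of 14. In replicate 1 most members, 22 of 34, thus had 1 chain only. The median was 8 fibrinogen UMIs per member and the maximum 128. Exactly 2 UMIs were found in 93 members, 3 to 9 in 304 and 10 or more in 318. Pooled over the tumors, Fgb was seen in 85.9% of members and Fgg in 83.1%, against 0.853% and 0.569% of immune barcodes. With each cell thinned to 500 UMIs, which left out 89 of 715 members and 1769 of 3516 immune barcodes, these shares were 69.2% and 60.9% against 0.515% and 0.229%.

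At the limit of the definition, 242 epithelial cells had exactly 1 fibrinogen UMI and stayed outside, and 64.5% of them had a UMI of a hormone-sensing gene and 33.5% one of PYMT. Of the 103 epithelial cells with exactly 2 fibrinogen UMIs, 85.4% had a hormone-sensing UMI and 28.2% a PYMT UMI. In all, 736 epithelial cells had at least 2 fibrinogen UMIs, and 21 of these were left out because PYMT was not exceeded.

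The hormone-sensing genes of the definition are given here as levels without a test, and genes of the lineage outside the definition follow with the first comparison. Levels in fibrinogen-negative hormone-sensing cells were set by their own limit of 2 UMIs of these genes. In 701 members fibrinogen alone exceeded PYMT, so that the hormone-sensing genes had no part in choosing them. In these cells Prlr, the prolactin receptor, averaged 2150 CPM, against 184 CPM in PYMT-positive cells and 2021 CPM in fibrinogen-negative hormone-sensing cells. Ptn, the growth factor pleiotrophin, averaged 1801 CPM against 41.0 and 879 CPM. Cited1, a transcriptional co-regulator of estrogen-responsive ductal cells, averaged 1236 CPM against 35.9 and 698 CPM. The progesterone receptor Pgr was low, at 77.5 CPM against 4.47 and 73.5 CPM, and the estrogen receptor Esr1 lower, at 35.8 CPM against 4.97 and 66.5 CPM. Of all 715 members, 680 had a UMI of at least 1 of the 5 hormone-sensing genes and 35 had none. Prlr had a UMI in 84.8% of members, Cited1 in 62.9%, Ptn in 51.3%, Pgr in 13.3% and Esr1 in 6.71%, against 1.91%, 0.711%, 1.45%, 0.0284% and 0.114% of immune barcodes.

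The luminal keratins Krt8 and Krt18 were at 3997 ± 1308 and 4957 ± 942 CPM in members (SD, n = 7), and at 1958 ± 245 and 2538 ± 604 CPM in PYMT-positive cells. Epcam, an epithelial adhesion molecule, was at 3203 ± 1419 CPM in members and 3498 ± 957 CPM in PYMT-positive cells. The oncogene itself stood at 253, 175, 214, 287, 614, 914 and 979 CPM in members of replicates 1, 2, 3, 4, 5, 7 and 8, with the 3 WT-series tumors above the 4 CB-series tumors. PYMT-positive cells had 1373, 1595, 1237, 1998, 3532, 3092 and 4677 CPM, with the same split between the series. The definition fixes that difference between classes. In 558 members PYMT had no UMI and in 157 at least 1, so that 22.0% of members had a PYMT UMI, against 3.07% of immune barcodes.

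**Figure D2:**
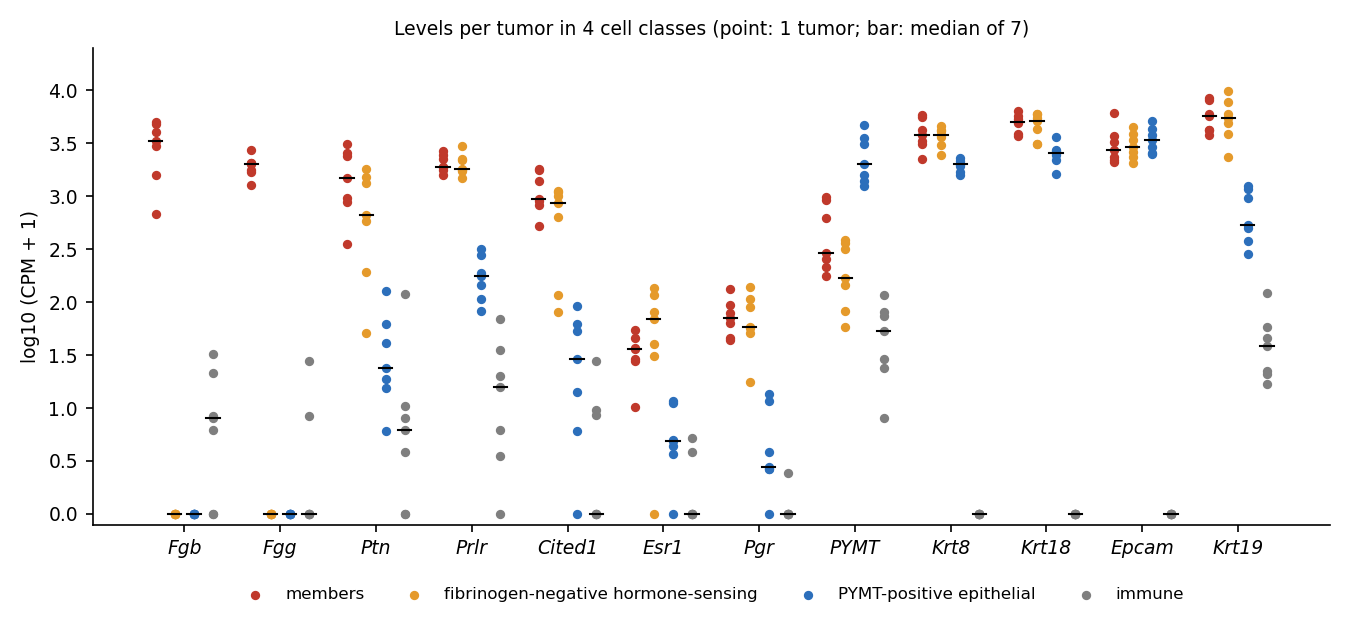
Levels (vertical axis, log10 of CPM + 1) of 11 genes of the definition and of Krt19 in members, fibrinogen-negative hormone-sensing cells, PYMT-positive epithelial cells and immune barcodes. Each point is 1 tumor and each bar the median of 7; Ptn, Prlr and Cited1 of members lie above those of PYMT-positive cells in all 7 tumors, and Fgb and Fgg of both comparison classes and Epcam, Krt8 and Krt18 of immune barcodes are at 0 by definition.

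The first comparison asked how members differed from PYMT-positive epithelial cells of the same tumors in genes that had not chosen either class. Among the genes tested, 7 of 9 of the hormone-sensing lineage and 3 of 5 keratins were higher in members, with Krt19 counted in both lists. Lower in members were 11 of 12 alveolar and milk genes and 9 of 11 acute-phase genes. Of 5492 genes that passed the filter on low counts, 1196 (21.8%) passed an adjusted p of 0.05 in the edgeR quasi-likelihood test, blocked by mouse. Of these, 551 were higher in members and 645 (11.7% of those tested) lower. The median log2 fold change of all genes tested was -0.01, and the counts of each list stand beside these shares. Since the classes were selected on other genes of the same cells, genes that go with those are not independent of the choice. The filter on low counts could also pass a gene through the class where it was high. For such a gene, low in the other class, the direction was largely set by passing. The counts of each list are therefore a description. Without replicate 4, the tumor with most members, 591 of 3379 genes passed, and 834 of the 1196 genes could still be tested. All 834 kept their direction and 581 of them their call. With the 3 WT-series tumors alone 310 of 2702 genes passed. There 720 of the 1196 could be tested, of which 714 kept their direction and 301 their call.

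Of the 16 genes of the hormone-sensing lineage, 9 passed the filter, 7 of which were higher in members, 1 lower and 1 not past the threshold. Their median log2 fold change was 3.01. Krt19, 1 of the 7 higher genes, is also on the keratin list and is given there. Areg, which encodes the EGF receptor ligand amphiregulin, stood at 200, 813, 1090, 604, 1229, 55.4 and 2937 CPM in members of replicates 1, 2, 3, 4, 5, 7 and 8. In PYMT-positive cells it stood at 33.1, 62.6, 105, 37.1, 85.9, 8.64 and 126 CPM. Members were higher in each of the 7 tumors, but replicate 7 was low in both classes, so the ranges overlapped (log2 fold change 3.56 ± 0.17, SE, adjusted p = 2.79e-13). Wnt4, a ligand that hormone-sensing cells send to neighboring cells, averaged 88.0 ± 37.7 CPM against 8.73 ± 5.19 CPM (log2 fold change 3.53 ± 0.35, adjusted p = 2.55e-08). Stc2, a secreted estrogen-responsive glycoprotein, averaged 488 ± 210 CPM against 26.0 ± 25.2 CPM, and all 7 member values, the lowest being 222 CPM, lay above the highest of PYMT-positive cells, 77.0 CPM (log2 fold change 4.31 ± 0.27, adjusted p = 1.54e-11).

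The surface and calcium-binding proteins of the list showed the same direction. Ly6a, the surface antigen Sca-1, averaged 2522 ± 862 CPM in members and 243 ± 155 CPM in PYMT-positive cells, with no overlap (log2 fold change 3.50 ± 0.29, adjusted p = 1.58e-09). S100a6, a calcium-binding protein, averaged 9088 ± 2481 against 1411 ± 794 CPM (2.76 ± 0.23). Prom1, a surface protein of luminal cells, averaged 72.0 ± 40.1 against 17.8 ± 10.1 CPM and was higher in 6 of 7 tumors (1.68 ± 0.32). The exception in direction was Cd14, a co-receptor for bacterial lipopolysaccharide, at 211 ± 205 against 641 ± 308 CPM and lower in all 7 tumors (log2 fold change -1.89 ± 0.27, adjusted p = 7.72e-06). Gata3, a transcription factor of luminal cells in general, was at 210 ± 135 and 185 ± 49.7 CPM (0.25 ± 0.22, adjusted p = 0.476).

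Foxa1 and Tbx3, transcription factors of the hormone-sensing lineage, did not pass the filter on low counts. Foxa1 averaged 81.0 CPM in members, 59.4 CPM in fibrinogen-negative hormone-sensing cells and 5.08 CPM in PYMT-positive cells. Tbx3 averaged 74.4, 73.8 and 4.43 CPM in the same order. Spdef was as low in members (15.8 CPM) as in PYMT-positive cells (17.5 CPM), and Tnfsf11, the ligand RANKL, and Greb1 had 6 UMIs and 1 UMI over all members. Calca, the calcitonin gene, reached 744 CPM in members of replicate 5 and 41.6 CPM in replicate 7, and was at 0 in the other 5 tumors.

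Among the 10 keratins of the list, 5 passed the filter on low counts, 3 of them higher in members and 2 lower. Krt19, a keratin of the ductal luminal layer, stood at 4229, 8426, 5989, 8110, 3773, 4224 and 5651 CPM in members of replicates 1, 2, 3, 4, 5, 7 and 8, and at 285, 1178, 378, 1256, 495, 958 and 538 CPM in PYMT-positive cells. No tumors overlapped between the classes (log2 fold change 3.01 ± 0.20, adjusted p = 5.52e-11). Krt7 averaged 1011 ± 198 against 192 ± 68.6 CPM (2.36 ± 0.18) and Krt6a 217 ± 144 against 11.2 ± 7.12 CPM (4.05 ± 0.33). The basal keratin Krt14 (29.6 against 133 CPM, log2 fold change -2.21) and Krt23 (16.3 against 73.1 CPM, -2.70) were lower, on 31 and 19 UMIs over all members.

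The alveolar and milk genes lay on the other side. Of 16 listed, 12 passed the filter on low counts, 11 were lower in members, none was higher, and the median log2 fold change was -2.38. Csn3, the casein that stabilizes milk micelles, stood at 9366, 1263, 7013, 4305, 5024, 9723 and 1246 CPM in members of replicates 1, 2, 3, 4, 5, 7 and 8. In PYMT-positive cells it stood at 21762, 19863, 20004, 26695, 21115, 36382 and 13992 CPM. Every value of PYMT-positive cells lay above every value of members (log2 fold change -2.44 ± 0.27, adjusted p = 2.26e-07). Barcodes under 200 genes averaged 8369 CPM and were above the members in all 7 tumors, so the Csn3 level of members was not above that background. Lalba, the milk protein alpha-lactalbumin, averaged 183 ± 115 against 1590 ± 784 CPM (-3.33 ± 0.34). Csn1s1, an alpha casein, was at 0 in 4 of the 7 member sums and averaged 13 CPM, against 849 CPM in PYMT-positive cells, where replicate 8 was also at 0 (-5.40 ± 0.37). Elf5, the transcription factor of alveolar cells, averaged 74.1 ± 75.1 against 212 ± 39.4 CPM (-1.82 ± 0.26), and Kit, a receptor of luminal progenitors, 30.4 against 134 CPM (-2.31 ± 0.25). Ltf, Wap, Xdh, Folr1, Plin2 and Mfge8 were lower, at log2 fold changes of -2.76 to -1.38. Aldh1a3 did not pass the threshold (-1.54 ± 0.58, adjusted p = 0.0569), but was lower past it under 7 other settings (-3.20 to -1.54, adjusted p from 2.05e-07 to 0.0457), DESeq2, the fit without the filter on low counts and the fit without replicate 1 among them.

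**Figure D3:**
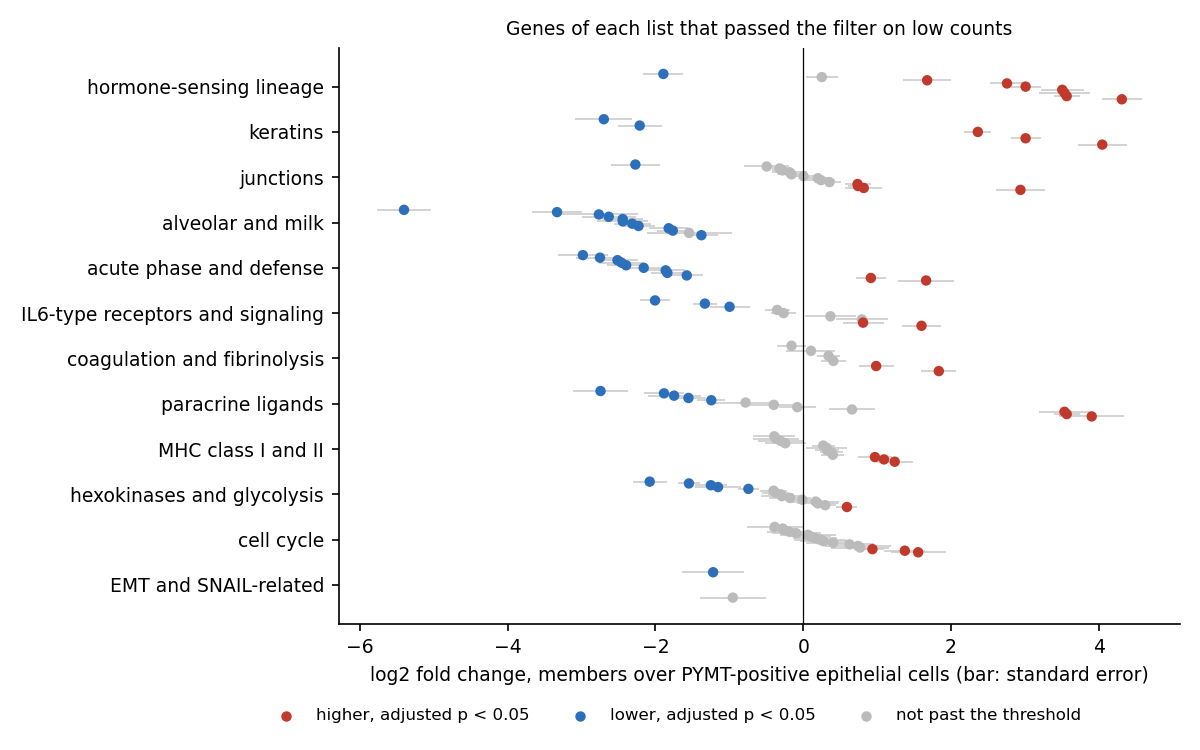
Log2 fold change of members over PYMT-positive epithelial cells (horizontal axis, bars are standard errors) for each gene of 12 lists (vertical axis) that passed the filter on low counts. Of the hormone-sensing genes 7 lie to the right with an adjusted p under 0.05, and of the alveolar and milk genes 11 lie to the left.

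Fibrinogen is itself an acute-phase protein, so other proteins of that response were examined. Of 17 genes 11 passed the filter on low counts, 9 were lower in members and 2 higher, with a median log2 fold change of -2.16. Saa1, serum amyloid A, stood at 53.4, 0, 18.6, 137, 334, 374 and 445 CPM in members of replicates 1, 2, 3, 4, 5, 7 and 8. In PYMT-positive cells it stood at 1533, 1013, 260, 728, 1578, 1430 and 1162 CPM, higher in all 7 tumors (log2 fold change -2.98 ± 0.34, adjusted p = 2.67e-07). Saa2, whose sequence is close to that of Saa1 so that reads may be split between them, fell by 2.75 on the log2 scale. Lcn2, the iron-sequestering lipocalin 2, averaged 2899 ± 2028 against 10376 ± 3174 CPM (-2.16 ± 0.28), and Cp, the copper carrier ceruloplasmin, 943 ± 716 against 2231 ± 1303 CPM (-1.58 ± 0.22). Trf (transferrin), Spp1 (osteopontin), Chil1, Slpi and Lrg1 were also lower. For each of the 9 lower genes the mean in members was below that in barcodes under 200 genes. The ratio ran from 0.379 for Slpi to 0.970 for Lrg1, and was 0.822 for Lcn2 and 0.919 for Cp. Their mean levels in members were thus not above that background. The 2 higher genes, Hp and Clu, were at 7.90 and 4.55 times it.

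The exceptions were Hp and Clu. Hp, the hemoglobin-binding protein haptoglobin, stood at 66.7, 499, 74.5, 297, 1175, 1454 and 222 CPM in members of replicates 1, 2, 3, 4, 5, 7 and 8, and at 77.7, 277, 23.0, 233, 40.4, 172 and 156 CPM in PYMT-positive cells. It was higher in members of 6 of 7 tumors, most of all in replicates 5 and 7 (log2 fold change 1.66 ± 0.38, adjusted p = 0.00198). With members that had a PYMT UMI left out it was 0.40 (adjusted p = 0.289), and with cells that had 2 or more UMIs of other cell type markers left out 0.17 (adjusted p = 0.694), or 0.45 (adjusted p = 0.142) if Dcn was not counted among these. In the CB series alone it was 0.52 (adjusted p = 0.115). Clu, the secreted chaperone clusterin, averaged 1922 ± 952 against 887 ± 240 CPM and was higher in 7 of 7 tumors (0.92 ± 0.20, adjusted p = 0.00127), and without the cells with other markers it was at 0.35 (adjusted p = 0.128), but it passed if Dcn was not counted among these (0.48, adjusted p = 0.0257).

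Of 16 receptors and signaling genes of the interleukin 6 type, 9 passed the filter on low counts, 2 of them higher in members and 3 lower. Among all genes tested 21.8% were called. Socs3, a feedback inhibitor that STAT3 induces, stood at 320, 539, 242, 582, 64.7, 651 and 44.5 CPM in members of replicates 1, 2, 3, 4, 5, 7 and 8 and at 105, 131, 18.1, 154, 101, 228 and 106 CPM in PYMT-positive cells. It was higher in 5 tumors and lower in replicates 5 and 8 (log2 fold change 1.60 ± 0.26, adjusted p = 3.58e-05), and in the WT series alone it was at 0.55 (adjusted p = 0.436). Il6st, the shared receptor chain gp130, was at 44.1 against 21.1 CPM (0.81 ± 0.28, adjusted p = 0.0375), a call that was lost without any of replicates 1, 5, 7 or 8 (adjusted p from 0.0641 to 0.0760), and without replicate 4 it did not pass the filter on low counts. The call was also lost with other size factors (adjusted p = 0.0532), DESeq2 (0.115), no filter on low counts (0.369), the CB series alone (0.246), at least 3 fibrinogen UMIs (0.0524) and without the cells with other markers (0.135, or 0.179 if Dcn was not counted). The transcription factors Cebpb (-2.0 ± 0.21) and Cebpd (-1.33 ± 0.17) were lower in all 7 tumors, and the oncostatin M receptor Osmr was lower in 5 (-1.0 ± 0.27; without replicate 4 -0.61, adjusted p = 0.246, and in the WT series -0.83, adjusted p = 0.482). Stat3 itself was at 187 and 241 CPM (-0.35 ± 0.17, adjusted p = 0.151), and with members that had a PYMT UMI left out it was -0.61 (adjusted p = 0.0348). The liver transcription factor genes Foxa2 and Foxa3 had 0 UMIs in members.

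Other genes of clotting and of fibrin turnover were sparse. Of 20 genes 6 passed the filter on low counts, 2 were higher in members and none lower, beside 21.8% called among all genes tested. With 6 genes tested, that count does not set the list apart. Tgm2, a transglutaminase that cross-links proteins, averaged 178 ± 86.1 against 53.7 ± 40.1 CPM (log2 fold change 1.83 ± 0.23, adjusted p = 1.59e-06). F3, tissue factor, which starts the clotting cascade, stood at 200, 382, 522, 364, 259, 208 and 2225 CPM in members, against 107, 213, 632, 111, 221, 80.7 and 272 CPM (0.99 ± 0.24, adjusted p = 0.00294). Replicate 8 was far above the rest, replicate 3 had the opposite direction, and the adjusted p was 0.0555 without replicate 4 and 0.0609 in the CB series alone. Proc, protein C, an anticoagulant protease, did not pass the filter on low counts and had 47 UMIs in members, or 21.7 CPM, against 0.615 CPM in PYMT-positive cells and 21.0 CPM in fibrinogen-negative hormone-sensing cells. The prothrombin gene F2 had 1 UMI in members. Of 9 genes for surface proteins that bind fibrinogen (integrins, Icam1 and Cdh5), 3 passed the filter and none passed the threshold. With 21.8% called among all genes tested, that count says nothing particular about the list. Markers of hepatocytes were near 0: 4 of the 8 in the matrices, Ttr, Apoh, Ambp and Vtn, had no UMI in members, and the 8 summed to 0 to 26.7 CPM over the tumors.

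The single genes with the greatest differences that had the same direction in all 7 tumors were taken by a rule on size and level, 12 in each direction. Upk3a, the urothelial membrane protein uroplakin 3A, stood at 120, 1213, 1444, 1287, 334, 443 and 1557 CPM in members of replicates 1, 2, 3, 4, 5, 7 and 8, and at 0.894, 14.3, 3.29, 21.5, 48.8, 8.07 and 5.03 CPM in PYMT-positive cells. The lowest member value lay above the highest of PYMT-positive cells (log2 fold change 5.67 ± 0.36, adjusted p = 2.67e-11). Ido1, the interferon-inducible enzyme that breaks down tryptophan, stood at 173, 436, 605, 992, 43.1, 235 and 178 CPM in members and at no more than 50.7 CPM in PYMT-positive cells, so that only replicate 5 of the members fell into their range (4.99 ± 0.34). Pcp4, a calmodulin regulator, averaged 1444 ± 1264 against 48.7 ± 46.0 CPM (4.52 ± 0.36), and its exons overlap those of Igsf5 on the same strand. Itih2, which encodes a plasma protein that binds hyaluronan and is chiefly made in liver, averaged 60.0 ± 36.0 against 2.78 ± 3.43 CPM (4.36 ± 0.38). Fam25c averaged 1512 ± 689 against 83.1 ± 74.0 CPM (4.32 ± 0.30), and AW112010 2289 ± 914 against 129 ± 84.8 CPM (4.14 ± 0.21). AC118222.2, BC030870, Ttc6, Clip4 and Mum1l1, with Stc2 above, completed the 12 at log2 fold changes of 4.31 to 5.35. All 12 were above barcodes under 200 genes in each of the 7 tumors, at 6.88 to 28.3 times their mean level.

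The 12 lower genes held several secreted proteins. Scgb1b27 and Scgb2b27, subunits of secreted androgen-binding proteins from a family of near-identical copies among which reads may be split, had the largest differences. Scgb2b27 stood at 0, 13.5, 74.5, 21.8, 75.5, 13.9 and 133 CPM in members, against 224, 576, 880, 1612, 8374, 1742 and 1836 CPM in PYMT-positive cells (log2 fold change -5.81 ± 0.31), and Scgb1b27 averaged 10.7 against 1354 CPM (-6.92 ± 0.30). Car6, a secreted carbonic anhydrase, was at 80.0 ± 96.6 against 1215 ± 2484 CPM (-4.12 ± 0.55), the high mean of PYMT-positive cells being that of replicate 5 with 6831 CPM. Wfdc18, a small secreted protein of the mammary gland, averaged 3344 ± 2656 against 17518 ± 4112 CPM (-2.82 ± 0.28). Atp6v1c2, Lalba, Rbp7, Dmkn, Car2, Saa1, Tspan8 and Arrdc3 were lower, at log2 fold changes of -3.38 to -2.87. None of the 12 lower genes had a mean in members above that in barcodes under 200 genes (0.0246 to 0.567 times). All 24 genes passed in the CB series alone. In the WT series alone 15 of the 24 could be tested, and without replicate 4 14 could, and all of these kept direction and call. The 24 were taken for size and for the same direction in every tumor, so their direction in a part of the tumors was largely fixed by that choice.

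**Figure D4:**
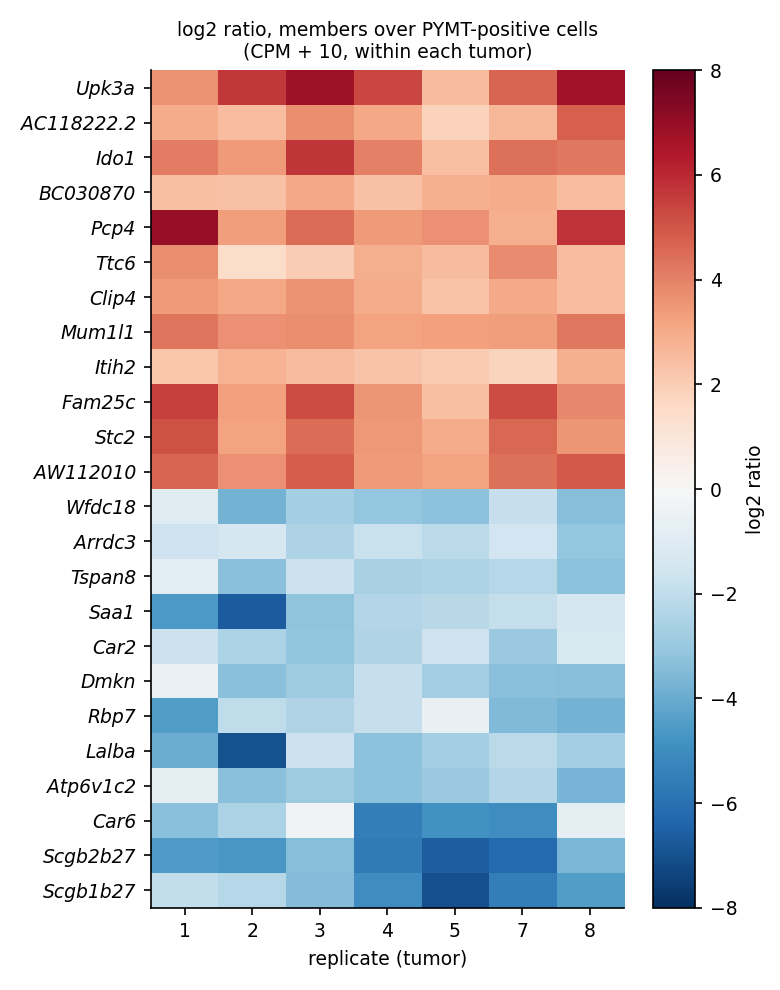
Log2 ratio of members over PYMT-positive cells within each tumor (color, from CPM + 10) for the 12 higher and 12 lower genes (rows) in 7 tumors (columns). Each of the 12 upper rows is above 0 and each of the 12 lower rows below 0 in all 7 tumors, with Dmkn and Car6 closest to 0 in replicates 1 and 3.

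Epithelial junction genes and the mesenchymal genes that the study followed in its tumor clusters were examined next. Of 14 junction genes tested out of 17, 4 were higher in members and 1 lower, beside 21.8% called among all genes tested. Cldn10 was at 121 ± 40.9 against 16.9 ± 14.7 CPM (log2 fold change 2.94 ± 0.33), Cldn4 at 2001 ± 1348 against 1025 ± 534 CPM (0.74 ± 0.18) and the tetraspanin Cd9 at 1528 ± 247 against 858 ± 117 CPM (0.74 ± 0.14; in the WT series alone 0.54, adjusted p = 0.126). Dsp, desmoplakin, was at 108 against 56.2 CPM (0.82 ± 0.25, adjusted p = 0.0204), and without replicate 2, 4 or 5 its adjusted p was 0.0693, 0.138 or 0.0865. Dsp did not pass in the CB series (adjusted p = 0.170), the WT series (0.107), with DESeq2 (0.0795) or without the filter on low counts (0.145). Cldn1 was lower, at 18.9 against 61.0 CPM (-2.27 ± 0.33), on 19 UMIs over all members. Cdh1, E-cadherin, was at 252 ± 108 and 196 ± 50.3 CPM (0.20 ± 0.16, adjusted p = 0.448). Cldn3 was lower past the threshold under 6 other settings (-0.55 to -0.37, adjusted p from 0.00810 to 0.0462), DESeq2 among them. Cd24a was higher past it under 2 (0.47 to 0.55, adjusted p from 0.0333 to 0.0373).

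Vim, vimentin, had 0, 13.5, 9.31, 25.8, 0, 111 and 0 CPM in members, against 28.6, 41.2, 87.2, 46.8, 55.6, 35.2 and 206 CPM (log2 fold change -1.22 ± 0.42, adjusted p = 0.0377), with replicate 7 in the opposite direction. The call was lost without any of replicates 2, 3, 5 or 8, with adjusted p from 0.0743 to 0.0891, and without replicate 4 Vim did not pass the filter on low counts. Sparc did not pass the threshold (-0.95 ± 0.44, adjusted p = 0.138), but was lower past it under 5 other settings (-1.91 to -1.13, adjusted p from 1.43e-05 to 0.0202). These were without replicate 7, in the CB series alone, without the filter on low counts, without members that had a PYMT UMI, and without cells with other markers besides Dcn. Snai1, Tagln and Mmp2 did not pass the filter on low counts, with 8, 8 and 11 UMIs over all members. Of the Mmp2 UMIs most were in replicate 7, where the level was 125 CPM. Of the 6 fibroblast markers, only Dcn, the matrix proteoglycan decorin, passed the filter. It was at 814, 791, 596, 791, 884, 776 and 712 CPM in members, near the same level in every tumor, against 160 ± 171 CPM in PYMT-positive cells (2.87 ± 0.41). Col1a1 was at 17.1 against 52.6 CPM and Pdgfra had no UMI in members. In fibrinogen-negative hormone-sensing cells Dcn averaged 1291 ± 1088 CPM, and in barcodes under 200 genes 540 ± 382 CPM, below the members in 6 of 7 tumors. Dcn was lower in members than in fibrinogen-negative cells with cells with other markers besides Dcn left out (-1.47, adjusted p = 0.0312).

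The hexokinase genes did not pass the threshold. Hk2, the gene floxed in these mice, averaged 41.8 ± 42.4 CPM in members and 39.4 ± 17.0 CPM in PYMT-positive cells (log2 fold change -0.18 ± 0.29, adjusted p = 0.734), on 60 UMIs in members. Barcodes under 200 genes averaged 70.4 ± 49.5 CPM of Hk2, above the members in 6 of 7 tumors, so the Hk2 level of members was not above that background. Immune barcodes averaged 67.8 ± 31.1 CPM, above the members in all 7. Their Hk2 may be their own, so they are not taken as background for this gene. Hk1 averaged 58.0 ± 45.5 and 61.6 ± 21.7 CPM (0.20 ± 0.28, adjusted p = 0.684). Of 15 glycolysis genes tested out of 20, 5 were lower in members and 1 higher, beside 21.8% called among all genes tested. Aldoc, an aldolase, was at 265 ± 79.6 against 706 ± 179 CPM (-1.55 ± 0.15), Ldhb at 34.7 ± 11.8 against 119 ± 36.4 CPM (-2.08 ± 0.23) and Ldha, which makes lactate, at 580 ± 93.1 against 923 ± 164 CPM (-0.74 ± 0.14), each lower in all 7 tumors. Pfkl and Pfkp were also lower, and Tpi1 was higher (0.59 ± 0.14). In the WT series alone Pfkl (-1.36, adjusted p = 0.150) and Tpi1 (0.46, adjusted p = 0.370) did not pass, nor did Tpi1 without the filter on low counts (0.38, adjusted p = 0.269).

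Of 20 genes for ligands that act on neighboring cells, 12 were tested, 3 of which were higher in members and 5 lower. Among all genes tested 21.8% were called. Besides Areg and Wnt4, the chemokine gene Cxcl15 was higher, at 58.9 ± 23.6 against 2.69 ± 4.44 CPM (log2 fold change 3.90 ± 0.44). The lower ones were Tgfb2 (-2.74 ± 0.37), Tgfb3 (-1.88 ± 0.27), Csf1, the macrophage growth factor (-1.75 ± 0.36), Cxcl1, which attracts neutrophils (-1.55 ± 0.24), and the EGF receptor ligand Hbegf (471 ± 276 against 968 ± 461 CPM, -1.24 ± 0.19). In the WT series alone Hbegf was at -0.52 and did not pass (adjusted p = 0.182).

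Of 12 genes of MHC class I and II and antigen processing tested out of 13, 3 were higher and none lower, a share near the 21.8% called among all genes tested. Psmb8, an immunoproteasome subunit, was at 656 ± 144 against 289 ± 107 CPM (log2 fold change 1.09 ± 0.15), Psmb9, another, at 137 ± 79.0 against 60.1 ± 24.7 CPM (1.24 ± 0.24), and the peptide transporter Tap2 at 100 ± 55.0 against 51.3 ± 13.1 CPM (0.97 ± 0.23). The call of Tap2 was lost without replicate 2 (adjusted p = 0.0537) and without replicate 4 (adjusted p = 0.0503), and that of Psmb9 in the WT series alone (0.41, adjusted p = 0.745). Higher past the threshold under other settings were B2m under 4 (0.46 to 0.48), H2-D1 under 4 (0.43 to 0.52) and Tapbp under 1 (0.80). H2-Ab1 was lower past it in the WT series alone (-2.89, adjusted p = 0.000994).

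Of 17 cell cycle genes tested out of 22, 3 were higher in members and none lower, a share below the 21.8% called among all genes tested. Ccnd1, cyclin D1, was at 536 ± 126 against 272 ± 74.5 CPM and higher in 7 of 7 tumors (log2 fold change 0.94 ± 0.15, adjusted p = 4.08e-05). Mcm6 (1.37 ± 0.28) and Cenpf (1.56 ± 0.37) were higher in 6 and 5 tumors, and DESeq2 did not call Cenpf (1.15, adjusted p = 0.0964). The proliferation markers Mki67 (71.4 ± 51.5 against 56.9 ± 23.7 CPM, adjusted p = 0.735) and Top2a (adjusted p = 0.618) did not pass the threshold.

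The second comparison set members against cells chosen by hormone-sensing genes that had no fibrinogen UMI. The classes were not chosen alike, since members needed no hormone-sensing UMI and 35 had none, while the fibrinogen-negative cells needed 2. With these 35 left out the number of genes called was also 4. Of 1680 genes that passed the filter on low counts, 4 (0.238%) passed an adjusted p of 0.05, 2 higher and 2 lower in members, while 147 had an unadjusted p under 0.05. DESeq2 called 2. The fibrinogen-negative sums held 17339 to 354820 UMIs, and the filter left fewer genes than in the first comparison. At this depth, a cell without a fibrinogen UMI is not shown to lack fibrinogen mRNA.

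Fxyd2, the gamma subunit of the sodium-potassium pump, was the one of the 4 called genes with the same direction in all 7 tumors. It stood at 814, 346, 466, 560, 129, 319 and 178 CPM in members of replicates 1, 2, 3, 4, 5, 7 and 8 and at 877, 748, 733, 1499, 755, 1058 and 461 CPM in fibrinogen-negative cells (log2 fold change -1.18 ± 0.18, adjusted p = 0.00654). The ranges overlapped, with replicate 1 of the members above 4 of the 7 values of the other class. Against PYMT-positive cells, at 57.0 ± 53.8 CPM, members were higher (2.79 ± 0.34, adjusted p = 6.38e-07), so that members lay between the other classes. The call was lost without replicate 4 (-1.11, adjusted p = 0.0503) or replicate 7 (-1.10, adjusted p = 0.0763) and in the CB series alone (-0.92, adjusted p = 0.117), and with members that had a PYMT UMI left out it was -0.74 (adjusted p = 0.0760). Fxyd2 passed under 14 of 21 other settings.

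The other 3 genes are named because the count is small, after their values were seen. Upk3a stood at 0, 310, 526, 200, 705, 208 and 57.7 CPM in fibrinogen-negative cells, against the values given above for members, which were higher in 6 tumors and lower in replicate 5 (log2 fold change 1.67 ± 0.33, adjusted p = 0.0269). Upk3a passed under 6 of 21 other settings. It was lost without any single replicate other than replicate 5 (adjusted p from 0.0770 to 0.386), with DESeq2 (adjusted p = 0.103), in the WT series alone (0.63, adjusted p = 0.984) and with cells that held other markers left out (1.16, adjusted p = 0.522, or 1.37, adjusted p = 0.250, if Dcn was not counted). Plb1, a phospholipase, averaged 69.5 ± 68.0 CPM in members and 203 ± 160 CPM in fibrinogen-negative cells and was lower in 6 of 7 tumors (-1.44 ± 0.27, adjusted p = 0.0214). It passed under 7 of the 15 other settings where it could be tested, and not without replicate 4, 7 or 8 (adjusted p from 0.0588 to 0.0959). Hbb-bs, a beta-globin of red blood cells, stood at 1161, 22.5, 0, 197, 0, 2008 and 9211 CPM in members and at 179, 32.1, 0, 78.9, 0, 1286 and 1903 CPM in fibrinogen-negative cells (1.51 ± 0.26, adjusted p = 0.015). It was higher in 4 tumors, led by replicate 8. It passed under 7 of the 14 other settings where it could be tested, and with members that had a PYMT UMI left out it was 0.19 (adjusted p = 0.980). Hba-a1 and Hbb-bt were likewise higher in members than in PYMT-positive cells (1.71 ± 0.33 and 1.32 ± 0.27), Hba-a1 not with members that had a PYMT UMI left out (0.29, adjusted p = 0.664) or in the CB series alone (1.44, adjusted p = 0.0877). In barcodes under 200 genes Hbb-bs, Hba-a1 and Hbb-bt averaged 71632, 19492 and 16233 CPM, above the members in all 7 tumors, so the globin levels of members were not above that background. The part of red cell mRNA in these differences was not tested. Without replicate 4 and without replicate 7, 0 genes passed in edgeR, and 108 and 113 had an unadjusted p under 0.05. Without replicate 1 and without replicate 8, 1 gene passed each time.

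**Figure D5:**
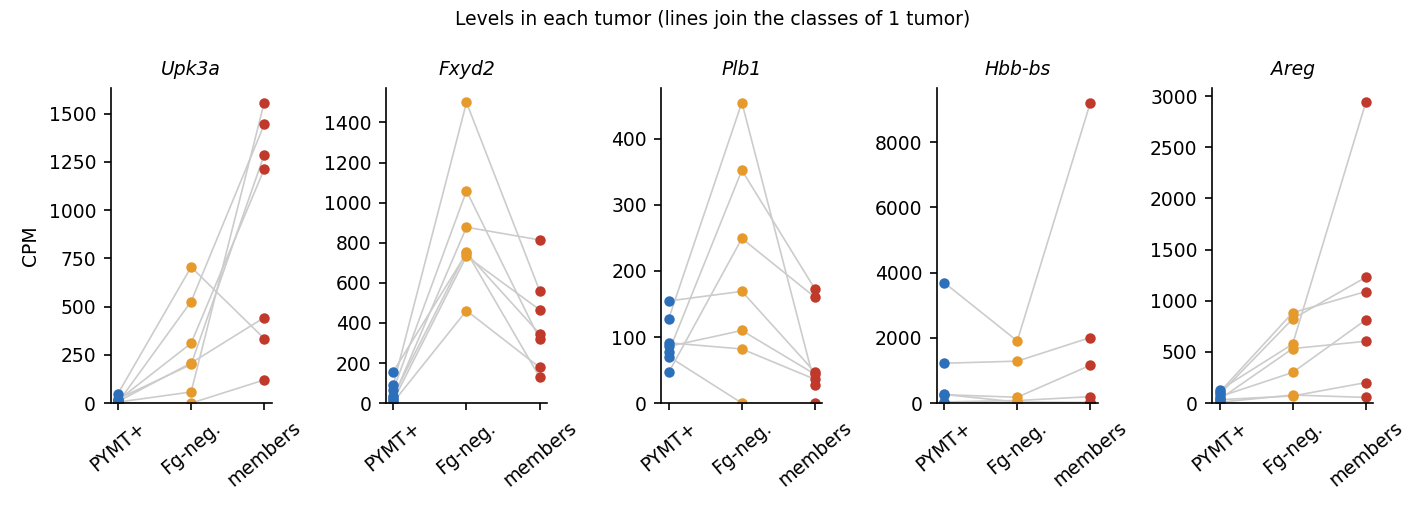
Levels (vertical axes, CPM, each from 0) of the 4 genes that differed between members and fibrinogen-negative hormone-sensing cells, and of Areg, in PYMT-positive cells, fibrinogen-negative cells and members. Each line joins the classes of 1 tumor; Fxyd2 is lower in members than in fibrinogen-negative cells in all 7 tumors, and Hbb-bs is led by 1 tumor at 9211 CPM.

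The hormone-sensing, keratin, milk, acute-phase and clotting lists held no called gene against fibrinogen-negative hormone-sensing cells in the fit with all members and the filter on low counts, where 0.238% of all genes tested were called, so that these counts of 0 say nothing particular about the lists. None of the 8 hormone-sensing lineage genes tested passed the threshold, and their median log2 fold change was -0.04, against 0.00 for all genes tested. Krt19 averaged 5772 ± 1886 CPM in members and 5703 ± 2439 CPM in fibrinogen-negative cells (log2 fold change 0.06 ± 0.14, adjusted p = 0.992), and S100a6 9088 and 9324 CPM (-0.00 ± 0.12). Areg averaged 990 ± 960 against 466 ± 330 CPM and was higher in 6 of 7 tumors (0.79 ± 0.20, adjusted p = 0.225), and it passed without the filter on low counts (0.85, adjusted p = 2.18e-05). Wnt4 averaged 88.0 against 147 CPM and was lower in 6 of 7 tumors (-0.40 ± 0.22, adjusted p = 0.643).

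None of the 9 acute-phase genes tested passed either, beside 0.238% of all genes, including Hp (0.92 ± 0.42, adjusted p = 0.531), Saa1 (-0.13 ± 0.39) and Lcn2 (0.11 ± 0.21), nor any of the 5 clotting genes, Tgm2 (-0.51 ± 0.20, adjusted p = 0.457) and F3 (-0.32 ± 0.16, adjusted p = 0.547) among them. With members that had a PYMT UMI left out, 4 of 6 acute-phase genes tested were lower than in fibrinogen-negative cells, which were not limited in that way. In that fit 13 of 1046 genes were called (1.24%), 11 of them lower. The 4 acute-phase genes were Trf (-2.14, adjusted p = 0.000122, against -0.10 with all members), Cp (-1.48, adjusted p = 0.00157, against -0.20), Lcn2 (-1.82, adjusted p = 0.00202) and Spp1 (-1.88, adjusted p = 0.00288, against -0.74). With all members, the mean levels of these 4 genes were below those of barcodes under 200 genes. Without the filter on low counts Hp passed (0.93, adjusted p = 5.01e-05), as did Spp1 (-0.73, adjusted p = 0.00168). Of the 4 alveolar and milk genes tested, Lalba was at 183 ± 115 against 407 ± 513 CPM (-0.95 ± 0.37, adjusted p = 0.457) and Csn3 at 5420 ± 3482 against 6897 ± 5800 CPM (-0.28 ± 0.22, adjusted p = 0.80). Csn3 was at -2.47 with members that had a PYMT UMI left out (adjusted p = 0.00157), and Lalba passed without the filter on low counts (-0.88, adjusted p = 0.00478). Among the named genes, Ido1 (0.29 ± 0.19), Pcp4 (0.08 ± 0.25), Fam25c (0.16 ± 0.18), Mum1l1 (-0.26 ± 0.20) and AW112010 (0.42 ± 0.15) also missed the threshold. A p that misses the threshold does not show equal levels. For Krt19, a difference of 1 standard error is 0.14 on the log2 scale, and for Saa1 it is 0.39.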

How the data were processed

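Single-cell mRNA of 7 control tumors was measured by Drop-seq on an Illumina NextSeq 500. After filtering, the authors aligned the reads to the mouse build mm10, to which they had added the sequence of PyMT. They deposited, per tumor, the count of UMIs of each gene in each barcode, not normalized. The submitters' processing notes name STAR and FastQC without versions, and also the human build hg19, which goes against the mouse gene symbols of the matrices. The counting program and its use of strand are not given in the sources used here. Tumors with HK2 deletion were not analysed here.

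Mitochondrial genes were dropped, and barcodes were sorted into classes by the UMI limits given with the results (Python 3.11.15, numpy 2.4.6, scipy 1.17.1, pandas 2.3.3; figures with matplotlib 3.10.9). The immune class had at least 3 UMIs of immune markers. No doublet caller was run beyond the upper limit of 6000 genes. UMIs were summed per mouse and class and tested with edgeR 4.0.16 in R 4.3.3 (TMM, the filterByExpr filter on low counts, quasi-likelihood test, Benjamini-Hochberg adjustment over all genes tested, threshold 0.05), with at least 10 cells per sum. The 12 genes that defined the classes stayed in the library sizes and were not tested. Since each tumor gave both classes of a comparison, the mouse was a block. Deviations from the class means correlated within every mouse, at 0.170 to 0.593. SEs were derived from the fold change and its F statistic.

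Genes named by size had an adjusted p under 0.05, the same direction in every mouse, at least 50 CPM in the higher class and a symbol neither of the form Gm with digits nor ending in Rik, 12 per direction. Also named were the genes that defined the classes, genes the study names, and from each list those that passed and up to 4 that did not. Members and lists were chosen with earlier results of these data known, and no list was tested as a set. On counts simulated with 4-fold changes, 197 of 199 changed genes and 10 of 5410 others were called in the comparison with PYMT-positive cells. In that with fibrinogen-negative cells 123 of 123 and 4 of 1595 were called. Each time 200 genes were changed, and those that did not pass the filter on low counts are left out of these counts. The counts were drawn with the same dispersion for every gene and with no difference between mice besides depth. How many true changes are found in the data themselves was therefore not tested.

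Alternatives were DESeq2 1.42.0, its size factors, no filter, no block, each mouse left out, each title series alone, other limits on cells and classes, members without PYMT UMIs, cells without other markers, and thinning to 500 UMIs. Leaving out barcodes shared between libraries, and not counting Dcn among other markers, were added after the data were seen. Positions are from GENCODE M21 (GRCm38) and promoters, 3 of 3 matched by symbol, from RefSeq. Exons of Gata3, Pcp4, Prlr, Spp1, Top2a and Trf overlap another gene on the same strand, where reads may be split. Some genes of the lists are not reported here.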

Additional observations from a re-analysis of the deposited data

Results flagged for a closer look

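A tumor was singled out where its value in members lay apart from the other 6 by Dixon's criterion (gap over range above 0.568). Chance meets that limit in about 1 of 20 groups of normal values of equal precision. The member sums held 22474 to 1008241 UMIs and so differed in precision, and that rate does not apply here. Of 117 values examined, 29 met the limit, a count given as a description only. The share of members among epithelial cells was 24.3% in replicate 4, against 11% in the next tumor.

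The other 28 were levels of single genes, 13 of them in replicate 8, whose 14 members gave 22474 UMIs. There Epcam was at 6140 CPM, Tbx3 at 178 CPM, Areg at 2937 CPM, AC118222.2 at 267 CPM, Itih2 at 133 CPM and Car2 at 89.0 CPM. Hbb-bs was at 9211 CPM, Clu at 4005 CPM, F3 at 2225 CPM, Dsp at 311 CPM, Cdh1 at 489 CPM and Hk2 at 133 CPM, and Stat3 was low at 44.5 CPM, or 1 UMI.

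In replicate 7 Spp1 was at 2867 CPM, Vim at 111 CPM, Mmp2 at 125 CPM and the immediate early gene Ier2 at 1302 CPM. In replicate 5 Calca was at 744 CPM, Hbegf at 1035 CPM, Krt23 at 64.7 CPM, Rbp7 at 21.6 CPM and Snai1 at 21.6 CPM. In replicate 1 Tgfb3 was at 227 CPM, Atp6v1c2 at 120 CPM, Ddit3 at 66.7 CPM and Dmkn at 26.7 CPM. In replicate 4 Csn1s1 was at 51.6 CPM and Tagln at 7.93 CPM.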

How the results depend on the processing

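The median share of epithelial cells was 5.97%, and 5.09 to 8.63% under 5 other limits on genes, epithelial UMIs, fibrinogen UMIs or hormone-sensing UMIs. The SD of the share between tumors, 7.42 percentage points, was larger than the median, so no fall of the median could have exceeded it. Against PYMT-positive cells, the number of genes called was 1196. It was 1901 without the filter on low counts (26816 tested), 310 in the WT series alone and 343 after thinning to 500 UMIs (1432 tested), and 591 to 1372 with each mouse left out. The 591 came without replicate 4. Without the replicate block 810 genes were called, and 802 of the 1196 stayed called. That fit no longer called Cebpb, Cldn4, Dsp, Dusp1, F3, Hba-a1, Hbb-bt, Hspa5, Ier2, Ier3, Ltf, Spp1 and Vim.

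Against fibrinogen-negative hormone-sensing cells, 4 genes were called. The count was 2 with DESeq2, 28 without the filter on low counts and 0 without the replicate block, where 39 genes had an unadjusted p under 0.05. It was 2 in the CB series and 1 in the WT series, 1 with at least 20 cells per sum, and 13 for members without PYMT UMIs, where 3 of the 4 genes could be tested and 0 of them passed. With cells that held other markers left out it was 2, or 4 (all lower, 1 of them among the 4) if Dcn was not counted. It was 0 with at least 500 genes per cell, with at least 3 fibrinogen UMIs and after thinning (156, 119 and 22 at an unadjusted p under 0.05). With each mouse left out it ran from 0 to 5. Lcn2 changed direction with members without PYMT UMIs, from 0.11 to -1.82 (adjusted p = 0.00202). The causes were not tested. The member sum of replicate 8 held 22474 UMIs, so that 1 UMI is a level of 44.5 CPM, and its fibrinogen-negative sum 17339 UMIs.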

Other observations

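Genes of the secretory pathway were also measured. Of 16 tested, 4 were lower in members than in PYMT-positive cells and none was higher, a share near the 21.8% called among all genes tested, with a median log2 fold change of -0.24 beside -0.01 for all genes tested. Xbp1, the transcription factor that expands the endoplasmic reticulum, was at 253 ± 102 against 762 ± 200 CPM (SD, n = 7) and lower in all 7 tumors (log2 fold change -1.70 ± 0.15, SE, adjusted p = 5.59e-09). Hspa5, the main chaperone of that compartment, was at 846 ± 293 against 1302 ± 261 CPM (-0.67 ± 0.17), and Ddit3 (-1.31 ± 0.34) and Dnajb9 (-1.14 ± 0.23; in the WT series alone -1.26, adjusted p = 0.151), genes of its stress response, were lower as well. Against fibrinogen-negative hormone-sensing cells none of 12 tested passed, beside 0.238% of all genes, with Xbp1 at -0.18 ± 0.14 (adjusted p = 0.80).

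Of 14 immediate early genes, which respond to stimulation and to tissue dissociation, 3 were lower in members than in PYMT-positive cells and none higher: Ier2 (-0.72 ± 0.16), Dusp1 (-0.72 ± 0.16) and Ier3 (-0.52 ± 0.15), each in 6 of 7 tumors. That share, too, is near the 21.8%. The call of Ier3 was lost without replicate 2 (adjusted p = 0.0679) and without replicate 4 (adjusted p = 0.0831), and in the CB and WT series alone (adjusted p = 0.0538 and 0.260). Atf3 was higher past the threshold under 6 other settings (0.59 to 0.90, adjusted p from 0.00295 to 0.0117). Lower past it were Egr1 under 6 (-0.94 to -0.55), Zfp36 under 3 (-0.60 to -0.52), Jund under 2 (-0.53 to -0.34) and Fos under 1 (-0.39). Against fibrinogen-negative cells none of the 14 passed, beside the same 0.238%.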
